A study of Mus musculus with 48 samples.

Results

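The genes described here are 48 genes of the cell division cycle, taken from a table of 49671 genes. They are a list of gene names, drawn up with earlier results of these data known; no measured value decides which gene is in it. They comprise 19 genes of DNA replication and nucleotide supply (the S list), 24 genes of the G2 phase and mitosis (the G2/M list), and 5 cyclins of the G1 phase, which are the cyclins D and E. Their levels were measured in 48 single cells of the inner cell mass (ICM), the inner cell group of the blastocyst, at E3.75. The cells came from 3 embryos positive for Pdgfra H2B-GFP/+, in which a nuclear human H2B-GFP fusion is targeted to the locus of Pdgfra, the receptor that marks primitive endoderm. These embryos came from natural matings of reporter mice with F1 hybrids of C57BL/6J and CBA/J, and were chosen by the study for mosaic GFP in the ICM. The trophectoderm was removed by immunosurgery, and each dissociated cell was frozen in its own well. Smart-seq2 copies polyadenylated RNA into full-length cDNA and carries no molecular identifiers. All cells shared the reporter, the stage and the handling, and no untreated or other control group is part of the design. The sample titles call every cell WT, whereas the reporter genotype is taken from the methods of the study.

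Wells are named by 6 letters with 8 numbers per letter. The labels do not tell the embryos apart, so the 48 cells were handled as 1 sample. Accordingly no test was made over cells, SDs describe the spread between cells, and the intervals of summed counts and of ratios cover counting error only. Total counts per cell ranged from 1718970 to 7342785, and 9202 to 11547 genes were detected per cell. The study divided the cells by clustering into a branch of prospective epiblast (pEPI, 25 wells) and a branch of prospective primitive endoderm (pPrE, 23 wells), read here by eye from its dendrogram. All 7 measured pEPI markers were lower in pPrE, and 7 of 8 pPrE markers reached a mean FPKM of 1, each at least 2-fold higher in pPrE. Since the branches were made from expression of the same cells, these marker values are a description. Of 7 trophectoderm markers, Cdx2 and Krt7 had counts in 3 cells and 1 cell, and Eomes had counts in 22 cells with a mean of 3.21 FPKM, the others lying below a mean of 1 FPKM. Their summed level ranged from 0 to 16.4 FPKM in pEPI (median 2.76) and from 0 to 19.3 FPKM in pPrE (median 3.73). In 29 cells the summed count on 4 Y-linked genes was at least 100, against 19 cells below that.

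Cells copy their DNA in S phase and separate the copies in mitosis. The MCM helicase is loaded on replication origins in G1 and started in S phase with Cdc45 and the GINS complex, while cyclins D and E lead cells through G1 into S phase, in part by releasing E2F transcription factors from the retinoblastoma protein. Entry into mitosis is driven by Cdk1 with cyclins A and B, and exit follows when the anaphase-promoting complex marks the cyclins for degradation. Pluripotent cells of the mouse embryo divide fast with a short G1 phase, and many replication genes are then transcribed in most cells, whereas mitotic transcripts gather late in the cycle and are cleared afterwards.

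Genes of the replication machinery were detected in nearly every cell. Of the S list, 17 of 19 genes had counts in all 48 cells, the other two being Cdc6, which loads the helicase and had counts in 45 cells, and Gins2, a GINS subunit with counts in 47. Levels are given as FPKM, which is a count scaled to the exon length of the gene and to the library size. The exon length is that of all annotated exons together, so the order of different genes by level depends in part on it. Rrm2, the regulated subunit of ribonucleotide reductase, had the highest level of the S list, ranging from 30.9 in well D3 to 336 in well F3 with a median of 150 FPKM. Pcna, the sliding clamp of the polymerases, ranged from 59.7 to 250 with a median of 133 FPKM. The 6 subunits of the MCM helicase lay close together, with mean levels between 47.7 FPKM for Mcm2 and 97.2 FPKM for Mcm5. Every subunit was counted in all 48 cells. The lowest levels of the list belonged to Fen1, the nuclease that trims Okazaki fragments, with a mean of 7.39 FPKM, and to Pola1, the catalytic subunit of the priming polymerase, with 9.33 FPKM. For Fen1, 84.2% of the exon bases are shared with other annotated genes, among them Tmem258, and for Gins2 67.3% with Gse1, so that the counts of both are uncertain. The kit does not mark the strand of a read.

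Single wells stood out across the S list. Well F3, a pEPI cell, had the highest level of 6 of the 19 genes, namely Mcm2, Mcm4, Mcm6, Cdc6, Prim1 and Rrm2. It also had the lowest total count of the pEPI cells, 2052874, and the fewest detected genes of them, 9313. Its Mcm4 level was 210 FPKM, where the median cell had 73.4 and the lowest, D3, had 19.7 FPKM. Wells D3, A5 and D2, pPrE cells with a high G2/M score, held several of the lowest values. D3 was lowest for Mcm4, Pcna and Rrm2, A5 for Mcm2, Mcm7 and Ung, and D2 for Cdc45, which was at 0.14 FPKM there against a median of 27.2 and a highest value of 66.6 FPKM. The genes of nucleotide supply and histone mRNA were counted in every cell. Rrm1, the large subunit of ribonucleotide reductase, ranged from 7.34 to 49.4 FPKM with a median of 28.7, against the 150 of Rrm2. The exon length used was 11012 bases for Rrm1 and 2771 for Rrm2. Their summed counts lay closer, with 34162 and 49368 in pEPI and 29366 and 40258 in pPrE. Tyms, which makes thymidylate, ranged from 9.95 to 59.4 FPKM with a median of 26.8. Slbp, which binds the stem-loop of histone mRNA, ranged from 4.7 to 52.9 FPKM with a median of 20.9; histone mRNAs themselves mostly lack a poly(A) tail and are not primed well by this method.

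Among the G1 cyclins, Ccnd3 was the D cyclin of these cells. It was counted in all 48 cells, from 11.8 FPKM in well A5 to 87.3 FPKM in well F3 with a median of 41.7. Ccnd1 was counted in 10 cells with a mean of 0.34 FPKM, and a single cell, C8, reached 7.56 FPKM and held 47.5% of its counts. Ccnd2 was counted in 1 cell only. These 2 genes did not reach a mean of 1 FPKM and are left out of all ratios, so that 46 of the 48 genes entered the comparisons. The E cyclins, which act with Cdk2 at the start of S phase, were counted in part of the cells. Ccne1 had counts in 37 cells and ranged from 0 to 67.5 FPKM with a median of 8.45. Ccne2 had counts in 34 cells and ranged from 0 to 29.5 with a median of 4.42. Absence of the transcript and its loss in the library cannot be told apart here. For Ccne2, 17.4% of the exon bases are shared with Ints8.

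The G2/M list held both the most abundant and some of the rarest transcripts. Cks2, a small partner of Cdk1, was the highest of all 48 genes, with 95.7 FPKM in well F6, a median of 372 and 1054 FPKM in well B3. Cdc20, the activator of the anaphase-promoting complex, ranged from 0.12 FPKM in well B2 to 456 FPKM in well C5, with a median of 60.1. Birc5, the survivin subunit of the chromosomal passenger complex, stayed within a narrow band in contrast, from 51.6 to 154 FPKM with a median of 102. At the other end were 3 rare transcripts: Cenpf, a kinetochore protein, had a mean of 2.33 FPKM, Mki67, which coats mitotic chromosomes, 2.48 FPKM, and Cdc25c, a phosphatase that activates Cdk1, 3.67 FPKM. Cdc25c was counted in 32 of 48 cells and Mki67 in 38, while 14 of the 24 genes were counted in every cell.

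Some mitotic regulators were at 0 in part of the cells and others in none. Plk1 ranged from 0 to 142 FPKM with a median of 25.6, and Kif23, the kinesin of the central spindle, from 0 to 22.2 FPKM with a median of 4.92; each was without a count in 8 of 48 cells. Ube2c ranged from 12.9 to 309 FPKM with a median of 44.8 and Aurka from 5.65 to 268 FPKM with a median of 53.5, and neither was at 0 in any cell. The mitotic cyclins and their kinase kept a base level throughout. Ccnb1 ranged from 14.3 to 245 FPKM with a median of 70.5. Ccnb2 ranged from 24.5 to 263 FPKM, Ccna2, the cyclin of S phase and G2, from 27.4 to 132 FPKM, and Cdk1 from 17 to 169 FPKM. Top2a and Kif11, the kinesin that pushes spindle poles apart, had medians of 14.3 and 12.4 FPKM, and Top2a was nearly at 0 in well C4 with 0.0195 FPKM. The checkpoint kinases Bub1 and Bub1b had medians of 17.3 and 21.9 FPKM and Tpx2, which activates Aurka on the spindle, 27.4 FPKM.

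The S and G2/M lists varied against each other from cell to cell. Over the 48 cells the median Spearman correlation between pairs of genes was 0.23 within the S list, with 146 of 171 pairs above 0, and 0.31 within the G2/M list, with 256 of 276 above 0. Between the lists the median was -0.21, and 72 of 456 pairs lay above 0. Over all pairs of the 10880 genes with a mean of at least 1 FPKM the median was 0.0015. These values describe cells that share embryos, depth and handling, and the gap was of the same order after every cell was thinned to 1718647 counts, with medians of 0.19, 0.32 and -0.19. The heat map of scaled levels orders the cells by these same genes, so the opposed blocks at its ends follow in part from the order.

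**Figure D1:**
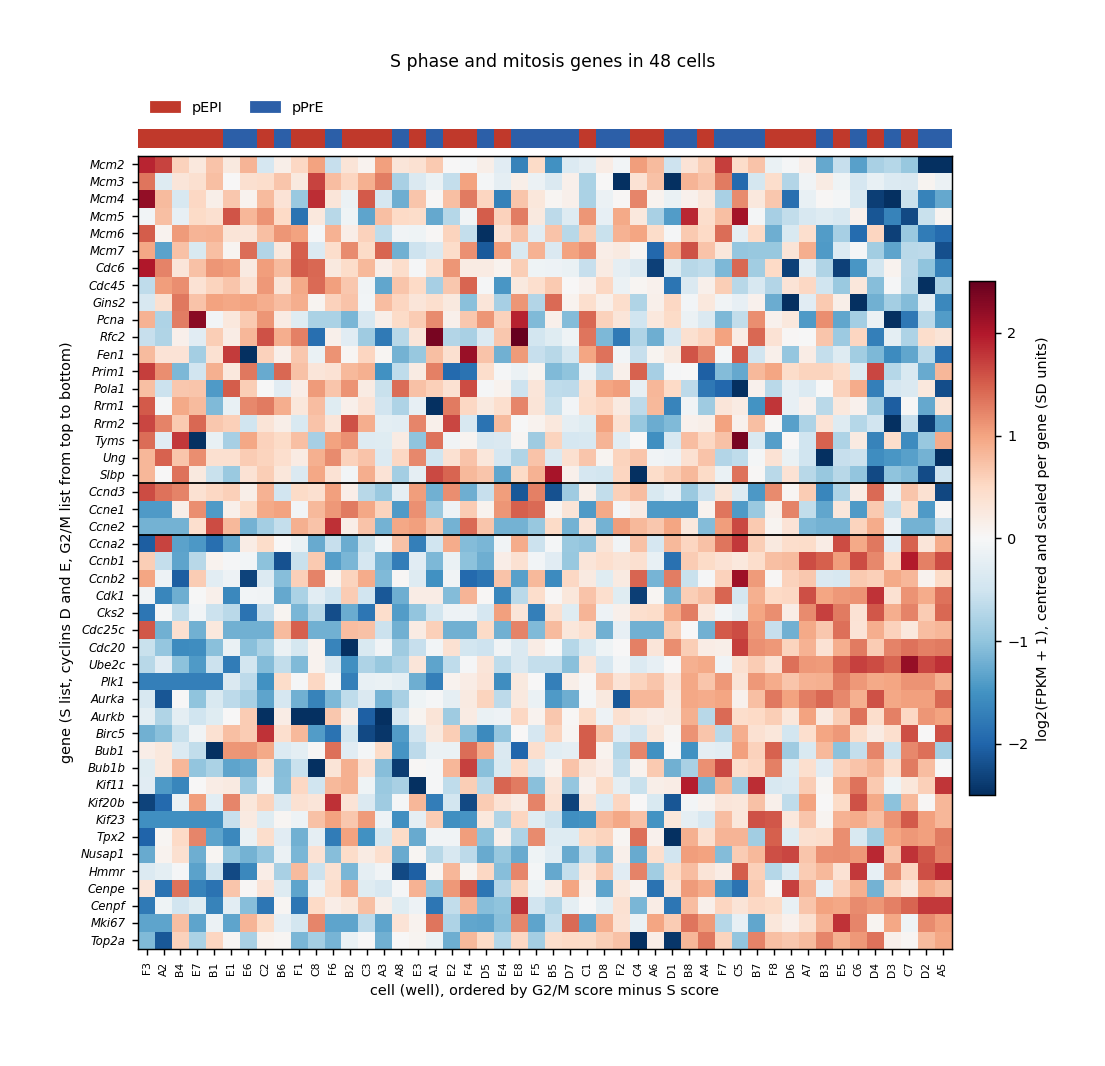
Levels of the 46 genes with a mean of at least 1 FPKM in each of the 48 cells, as log2(FPKM + 1) centred and scaled per gene in SD units, with colours limited at 2.5 SD. Rows run from the S list through the cyclins Ccnd3, Ccne1 and Ccne2 to the G2/M list, columns are wells ordered by G2/M score minus S score, and the bar above gives the branch. The order is made from these same genes. Wells D2 and A5, thus placed at the right, are low for most S genes and high for most G2/M genes. Wells of pEPI and pPrE are found along the whole order.

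A core of mitotic genes moved most closely together. The highest correlation was between Plk1, the polo kinase, and Ube2c, the ubiquitin-conjugating enzyme of the anaphase-promoting complex, at 0.81. Cdc20 with Plk1 reached 0.79, and Plk1 with Aurka, the centrosomal Aurora kinase, reached 0.76. Set against the mean of the other 23 genes of its list, Plk1 correlated at 0.81, Ube2c, Cdc20 and Aurka at 0.76 each, and Ccnb1, cyclin B1, at 0.71. Members of the same complexes could stand apart, however. Ccnb2, cyclin B2, correlated with the rest of the list at 0.12, Kif20b, a kinesin of cytokinesis, at 0.16, and Bub1, a spindle checkpoint kinase, at -0.01, whereas its relative Bub1b reached 0.49. Within the S list, Cdc6 followed the other 18 genes most closely at 0.64, followed by Ung, which removes uracil from DNA, at 0.59 and Mcm6 at 0.55. Prim1, the primase subunit, at -0.02 and Rfc2, a clamp loader subunit, at 0.09 did not follow. The most negative pair over all genes listed was Cdc6 with Plk1, at -0.67. Cdc6 levels were 0 to 42.7 FPKM in the cells of the G2/M-high range defined below and 4.82 to 76.5 FPKM in those of the S-high range. Cdc6 is among the genes that set these ranges, so the values are a description.

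Because these genes varied together, the DNA before their start sites was read from the RefSeq promoter table (GRCm38.p6), which held 38 of the 48 genes. Mcm4, Gins2, Rfc2, Ccnd1, Ccnd2, Ccne2, Ccna2, Cdc25c, Aurkb and Tpx2 were without an entry. Windows of 250 bases before to 50 bases after the start were searched on both strands for 3 elements known from cell cycle promoters. These were the cell cycle genes homology region (CHR, as TTTGAA or TTCGAA), which binds the DREAM and MuvB complexes, the CCAAT box, bound by NF-Y, and E2F-type sites (TTCCCGC and its relatives TTGGCGC, with the further forms TTCGCGC and also TTGCCGC). A gene with several entries was counted where any of them held the letters. CHR letters were found for 15 of 20 G2/M genes (75.0%) and for 4 of 16 S genes (25%), against 21.7% of all 27025 genes with an entry. CHR and CCAAT letters in the same window were found for 14 of 20 G2/M genes (70.0%) against 8.61% of all genes with an entry. E2F-type letters were found for 10 of 16 S genes (62.5%) and 4 of 20 G2/M genes, against 10.9% of all. None of these letters was found for Birc5, the least variable gene of the G2/M list, nor for Nusap1, the most variable. The following windows hold the 80 bases before the start of 5 G2/M genes that have CHR and CCAAT letters there, and of Birc5. Each reads 5′ to 3′ on the strand of the gene, and capitals mark CHR (TTTGAA, or TTCAAA for the other strand) and CCAAT (or ATTGG for the other strand).
Cdc20 (chr4:118437344-118437423, minus strand): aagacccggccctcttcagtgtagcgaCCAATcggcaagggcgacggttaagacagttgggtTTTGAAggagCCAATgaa
Ube2c (chr2:164769849-164769928, plus strand): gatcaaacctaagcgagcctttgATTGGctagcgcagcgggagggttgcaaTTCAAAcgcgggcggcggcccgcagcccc
Cdk1 (chr10:69352913-69352992, minus strand): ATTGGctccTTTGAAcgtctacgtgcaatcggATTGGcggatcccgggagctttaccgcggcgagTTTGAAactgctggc
Top2a (chr11:99024190-99024269, minus strand): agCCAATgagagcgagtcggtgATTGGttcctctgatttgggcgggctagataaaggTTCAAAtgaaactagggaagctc
Kif11 (chr19:37376302-37376381, plus strand): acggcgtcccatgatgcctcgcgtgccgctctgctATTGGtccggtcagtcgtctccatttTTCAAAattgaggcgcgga
Birc5 (chr11:117849157-117849236, plus strand): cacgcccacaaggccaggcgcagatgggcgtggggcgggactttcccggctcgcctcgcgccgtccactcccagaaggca

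Of the S list, 3 windows with E2F-type and CCAAT letters are shown in the same way. Capitals mark E2F-type letters and CCAAT or ATTGG. In Mcm6 E2F-type letters of both strands overlap, and in Prim1 the E2F-type letters run into the CCAAT box.
Mcm6 (chr1:128359706-128359785, minus strand): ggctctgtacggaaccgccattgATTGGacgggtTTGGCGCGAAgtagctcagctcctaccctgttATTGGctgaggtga
Rrm1 (chr7:102441615-102441694, plus strand): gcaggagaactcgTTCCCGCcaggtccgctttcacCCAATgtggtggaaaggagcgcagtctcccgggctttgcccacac
Prim1 (chr10:128015135-128015214, plus strand): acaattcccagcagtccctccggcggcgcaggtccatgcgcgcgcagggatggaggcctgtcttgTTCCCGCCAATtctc

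Cdc20, Cdk1 and Top2a, the DNA topoisomerase of mitotic chromosomes, each carry 2 copies of the CCAAT box and at least 1 CHR within these bases, and Cdk1 carries 2 of each. How closely the genes varied together was similar with and without CHR or E2F-type letters. The 15 G2/M genes with CHR letters had a median correlation of 0.57 with the rest of their list, and the 5 without, Ccnb1, Cks2, Birc5, Nusap1 and Cenpe, had 0.61. Likewise the 10 S genes with E2F-type letters had a median of 0.39 and the 6 without 0.41. For CCAAT letters the medians lay further apart. The 17 G2/M genes with them had 0.60, and the 3 without, Birc5, Kif20b and Nusap1, had 0.42. These groups are small and no test was made. A match is a description of letters and no measured binding site.

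Each cell was given an S score and a G2/M score, the mean scaled level of the 19 and 24 genes. The 2 scores were inversely related with a Spearman correlation of -0.59 over 48 cells, with -0.65 in pEPI, -0.48 in pPrE, -0.42 in the cells with Y-linked counts and -0.69 in those without. A cell was placed in the S-high range where its S score was above 0 and above the G2/M score, in the G2/M-high range where the G2/M score was above 0 and at least the S score, and otherwise in the range low in both. These are ranges of a score and no measured phases, as DNA content was not measured. There were 22 S-high, 17 G2/M-high and 9 low cells, and 10 cells lay within 0.1 of a cut. After thinning the ranges held 24, 17 and 7 cells, and 4 cells had moved to another range. The highest G2/M score was 1.10 in well A5 of the pPrE branch, followed by 1.04 in well C7 of the pEPI branch. In these wells the S score was -1.14 and -0.91. The S score was highest in well F3 at 0.98, which had a G2/M score of -0.72. After thinning the S score of F3 was 0.75, still the highest.

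**Figure D2:**
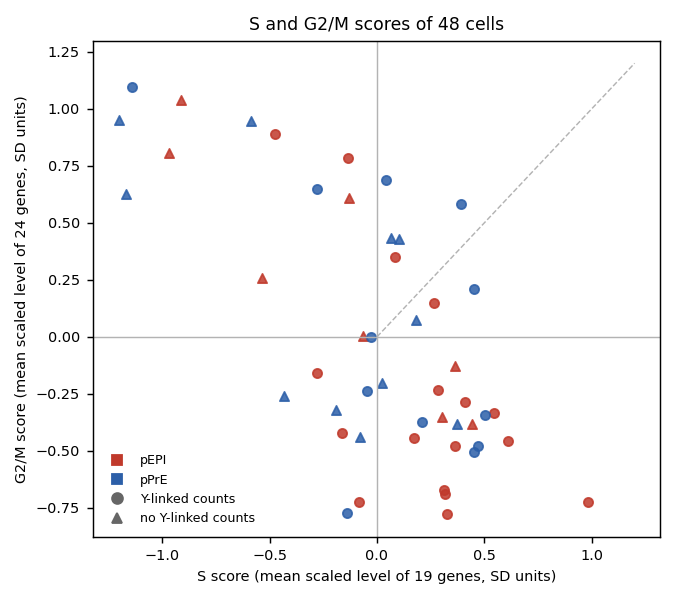
S score (horizontal) and G2/M score (vertical) of each of the 48 cells in SD units, coloured by branch, with circles for the 29 cells with Y-linked counts and triangles for the 19 without. Solid lines mark 0 and the dashed line equal scores. Cells of high G2/M score reach S scores down to -1.2, and both branches occur in all ranges.

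Depth and the number of detected genes moved with the scores. The S score correlated with the total count at 0.47 and still at 0.40 after thinning, while the G2/M score did so at 0.04. After thinning, the number of detected genes correlated with the G2/M score at 0.44 and with the S score at -0.41. The median number of genes after thinning was 10076 in G2/M-high cells, 9690 in S-high cells and 9334 in low cells. The part of depth in the S score was not tested.

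Genes that were not used for the scores showed the same division. From a further list of 25 replication genes, 20 had a higher median in S-high than in G2/M-high cells, and from a further list of 28 G2/M genes 27 had a higher median in G2/M-high cells. Among all 10880 genes, 44.4% had a higher median in G2/M-high cells and 42.5% in S-high cells. Ect2, the exchange factor that starts the cleavage furrow, had a median of 16.4 FPKM in G2/M-high, 2.99 in S-high and 1.96 in low cells. Gtse1, which binds microtubules in G2, had medians of 21.4, 8.16 and 8.61 FPKM. The exception was Psrc1, a spindle protein, with 9.85 FPKM in G2/M-high and 23.5 in S-high cells. The score of the further replication list correlated with the S score at 0.60, and that of the further G2/M list with the G2/M score at 0.77. Of the cyclins left out of the scores, Ccne1 had a median of 21.3 FPKM in S-high, 7.06 in G2/M-high and 7.30 in low cells, and Ccnd3 had 48, 39.4 and 31.5 FPKM. Ccne2 was highest in the low cells, with 4.17, 3.17 and 7.22 FPKM. The values of each cyclin overlapped between the ranges.

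The ranges were spread over both branches. In pEPI 14 of 25 cells were S-high (56.0%, exact 95% interval 34.9% to 75.6%), 8 were G2/M-high (32%, 14.9% to 53.5%) and 3 low in both (12%, 2.55% to 31.2%). In pPrE 8 of 23 were S-high (34.8%, 16.4% to 57.3%), 9 were G2/M-high (39.1%, 19.7% to 61.5%) and 6 low (26.1%, 10.2% to 48.4%). These intervals treat cells as independent draws, which cells of 3 embryos are not, and no difference between the branches was tested. After thinning the S-high cells were 15 of 25 and 9 of 23, and the G2/M-high cells 7 and 10. The share of G2/M-high cells was 7 of 29 in the cells with Y-linked counts (24.1%, 10.3% to 43.5%) and 10 of 19 in those without (52.6%, 28.9% to 75.6%), likewise without a test. In cells without Y-linked counts the G2/M-high share was 5 of 8 in pEPI and 5 of 11 in pPrE, and in those with them 3 of 17 and 4 of 12, so that the order of the branches was opposite in the 2 sets. S-high cells were 16 of 29 with Y-linked counts and 6 of 19 without. Per letter, G2/M-high cells numbered from 1 of 8 (letter E) to 4 of 8 (letters C and D). S-high cells numbered from 1 of 8 (letter D) to 6 of 8 (letter E). Embryo, sex and well position cannot be told apart here.

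Few of these genes differed by 2-fold between the branches. At a ratio of mean FPKM of at least 2, 1 of 46 genes was higher in pPrE and 0 were lower, where 6.2% of all 10880 genes were higher and 9.03% lower. At a ratio of 1.5, 3 genes were higher and 3 lower, where all genes gave 12.3% and 16.4%. The 46 genes had a higher median level than all genes, 27.8 against 6.22 FPKM. Their median squared coefficient of variation was lower, 0.29 against 0.68. The part of level and variability in these shares was not tested. The median log2 ratio of pPrE over pEPI was -0.16 for the S list, with 14 of 19 genes below 0 and a range from -0.70 to 0.29. It was 0.11 for the G2/M list, with 17 of 24 above 0 and a range from -0.65 to 1.03, and 0.0019 for all genes. In the cells with Y-linked counts the G2/M median was 0.31, but in those without it was -0.14, and thus its direction was not common to both sets. The S median was -0.13 and -0.10 in these sets.

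**Figure D3:**
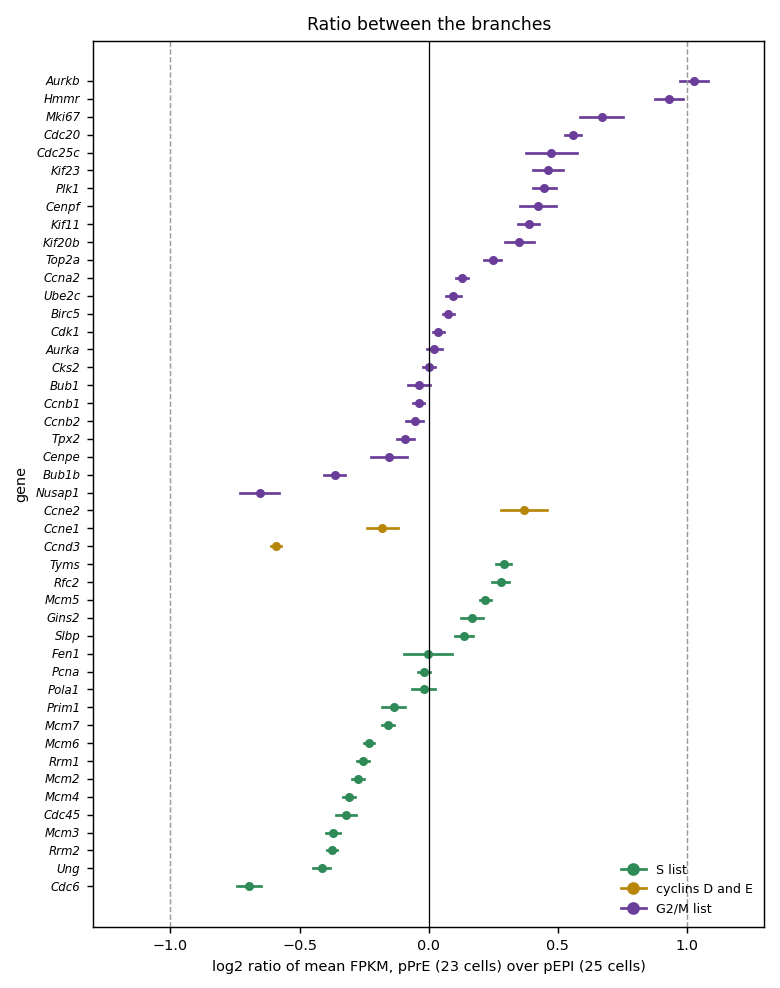
Log2 ratio of mean FPKM of the 23 pPrE cells over the 25 pEPI cells for each of the 46 genes, ordered within the G2/M list, the cyclins and the S list. Lines give 95% counting intervals, which do not cover the spread between cells, and dashed lines mark a ratio of 2. Aurkb alone passes the upper line, with 1.03, and Cdc6 is the lowest, with -0.70.

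Aurkb, the kinase of the chromosomal passenger complex (ENSMUSG00000020897, GRCm38 chr11:69045647-69051664), was the gene with the largest ratio. Its level ranged from 0 to 43.9 FPKM with a median of 12.7 in pEPI, and from 9.03 to 68.0 FPKM with a median of 23.9 in pPrE. The values overlapped over most of their range, yet all 23 pPrE cells had counts, and 22 of 25 pEPI cells. The means were 14.2 ± 11.2 FPKM (SD, 25 cells) and 29 ± 17 FPKM (SD, 23 cells), a log2 ratio of 1.03 (counting interval 0.97 to 1.08) that rests on 4138 and 8767 counts. The difference of the means exceeded the SD of pEPI but not that of pPrE. The ratio had the same sign within each range of the scores, of which Aurkb is itself a gene. It was 1.2 in S-high, 0.81 in G2/M-high and 0.83 in low cells, the last from 3 pEPI and 6 pPrE cells. Over all cells the ratio stood just above 2-fold. It fell below in the cells with Y-linked counts (0.95), in those without (0.97) and without the wells of letter C (0.88) or F (0.97). Where cells were grouped by a marker score it was 0.84. Birc5, its partner in the complex, had 97.1 ± 27.2 FPKM in pEPI and 102 ± 20.9 FPKM in pPrE, a log2 ratio of 0.08.

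Hmmr, a spindle assembly protein that binds hyaluronan, followed with a log2 ratio of 0.93 (0.87 to 0.98). It ranged from 0.21 to 24.1 FPKM with a median of 5.57 in pEPI, and from 0 to 43.8 FPKM with a median of 11.2 in pPrE. Its ratio was 0.63 in the cells with Y-linked counts and 1.09 in those without. Among G2/M-high cells the levels were 10.4 ± 6.64 FPKM in 8 pEPI cells and 25 ± 12.7 FPKM in 9 pPrE cells. Mki67 had 1.93 ± 2.28 FPKM in pEPI and 3.07 ± 2.43 FPKM in pPrE, a log2 ratio of 0.67 (0.59 to 0.75), and was counted in 19 cells of each branch. Cdc20 had 85.3 ± 81.5 FPKM in pEPI and 126 ± 119 FPKM in pPrE (0.56, 0.53 to 0.59), and Cdc25c 3.09 ± 3.98 and 4.29 ± 3.85 FPKM (0.47, 0.38 to 0.57). For these 3 genes the SD within each branch exceeded the difference of the means. The ratio of Cdc25c was 0.12 in the cells with Y-linked counts and 1.26 in those without, and that of Cdc20 was 0.72 and 0.14. Plk1 was at 32 ± 38.3 and 43.7 ± 36.3 FPKM, with a log2 ratio of 0.45 over all cells. The ratio was 1.11 among S-high, 0.09 among G2/M-high and -0.12 among low cells, the last from 3 pEPI and 6 pPrE cells. In the cells with Y-linked counts it was 0.70 and in those without -0.03. Kif23 had a ratio of 0.46 over all cells, 1.39 with Y-linked counts and -0.48 without. Besides Cdc25c, the genes of Cdk1 and its cyclins, Cdk1, Ccna2, Ccnb1, Ccnb2 and Cks2, had ratios between -0.05 and 0.13.

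On the lower side the first gene was Cdc6 (ENSMUSG00000017499, chr11:98907801-98923940). It ranged from 0 to 76.5 FPKM with a median of 11.6 in pEPI and from 0.92 to 42.7 FPKM with a median of 8.38 in pPrE. The means were 18.1 ± 18 and 11.2 ± 9.70 FPKM, a log2 ratio of -0.70 (-0.74 to -0.65), and a difference smaller than the SD of pEPI. The ratio was -0.81 in the cells with Y-linked counts and -0.34 in those without. Among S-high cells it was -0.79, but among G2/M-high cells it was 0.55. Nusap1, a microtubule bundling protein of the spindle, had 9.84 ± 13.2 and 6.25 ± 8.2 FPKM (-0.65, -0.73 to -0.58). Its ratio was -1.69 in the cells without Y-linked counts but 0.33 in those with them, so its direction was not common to both sets. It was -1.60 among S-high and -0.75 among G2/M-high cells, where single cells reached 44.4 FPKM in pEPI and 29 FPKM in pPrE.

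Ccnd3 (ENSMUSG00000034165, chr17:47505051-47599691) had 51.2 ± 18.7 FPKM in pEPI and 34 ± 16.4 FPKM in pPrE, with a log2 ratio of -0.59 (-0.61 to -0.57). Its median was 49.8 in pEPI and 32.7 in pPrE, and its ranges of 20.6 to 87.3 and 11.8 to 72.7 FPKM overlapped. The ratio stayed below 0 in all 12 settings tried, between -0.94 in the cells with Y-linked counts and -0.25 in those without. Ung had 31 ± 12.1 and 23.2 ± 11.4 FPKM (-0.41, -0.45 to -0.38), and Rrm2 179 ± 84.7 and 138 ± 56.8 FPKM (-0.37, -0.39 to -0.35). Of the 6 MCM subunits 5 were lower in pPrE, with ratios from -0.37 to -0.16, while Mcm5 was at 0.22, and of the nucleotide genes Tyms, the thymidylate synthase, was at 0.29. Within the ranges, the median ratio of the S list was -0.04 in S-high, 0.05 in G2/M-high and 0.10 in low cells, and that of the G2/M list was 0.15, 0.0048 and 0.17. These ranges were cut from the same genes, so the values are a description.

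**Figure D4:**
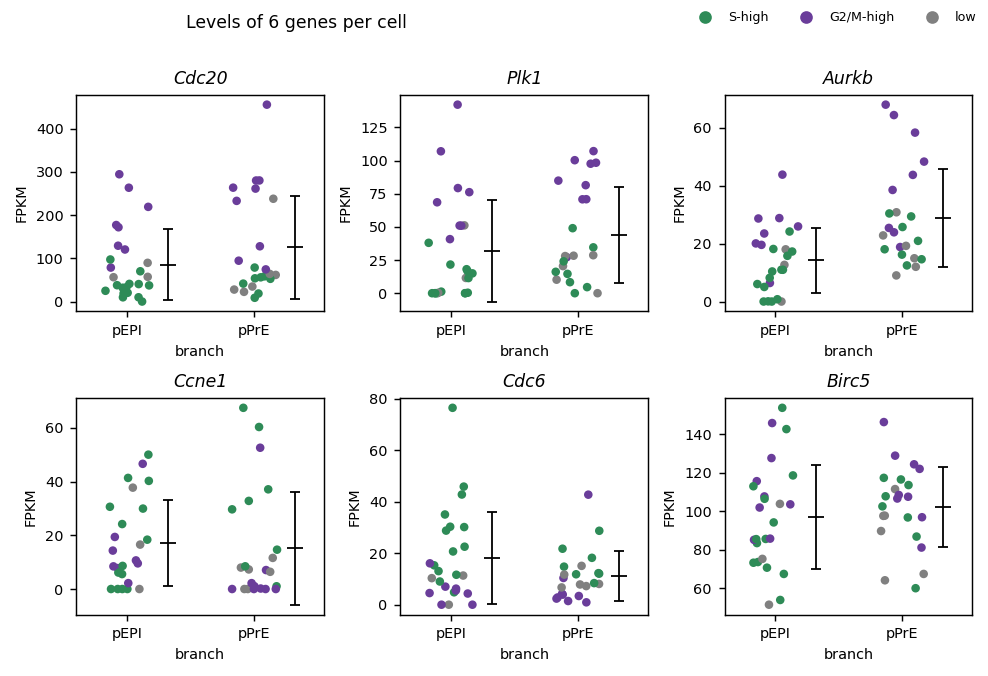
Levels in FPKM of Cdc20, Plk1, Aurkb, Ccne1, Cdc6 and Birc5 in each of the 25 pEPI and 23 pPrE cells, coloured by range, with the mean and SD beside the points; each panel has its own linear axis. Points of the branches overlap in all panels, and Birc5 lies between 51.6 and 154 FPKM in every cell. G2/M-high cells hold the highest values of Cdc20 and Plk1, which are themselves genes of the score that sets this range.

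The lists differed in how much their genes varied between cells. With the cut-offs of the study, 0.5 for the mean log2 level and 0.25 for the log of the squared coefficient of variation (CV²), applied here to log2(FPKM + 1) and the natural log, 31.6% of 11193 genes were highly variable, and 3 of 46 genes of the lists were, namely Nusap1, Ccne1 and Ccne2. The base of the log is not given in the sources used here, and with log10 1 of the 46, Nusap1, passed, against 22.6% of 11193 genes. The median CV² was 0.20 for the S list, 0.56 for the G2/M list and 0.68 for all genes with a mean of at least 1 FPKM. Mcm7 had the lowest CV² of the S list with 0.08, followed by Pcna, Rrm1, Mcm5 and Mcm2, with values up to 0.11. Cdc6 stood alone at the top with 1.01, and the next were Gins2, Pola1, Cdc45 and Prim1 between 0.36 and 0.24. In the G2/M list Nusap1 led with 1.87, and Cdc25c, Plk1, Cdc20 and Mki67 lay between 1.15 and 0.94. Birc5 had 0.06, the lowest of all 48 genes, and Ccna2, Tpx2, Ccnb2 and Cdk1 followed between 0.15 and 0.25. Low genes can vary more by counting and drop-out, and the part of these in the CV² was not tested. The plot of CV² against level sets these genes beside all genes.

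**Figure D5:**
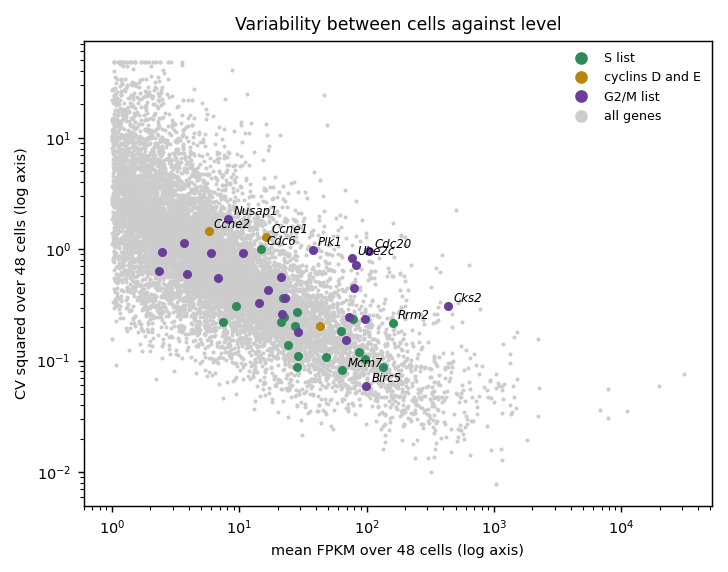
CV² over 48 cells against mean FPKM, both on log axes, for all 10880 genes with a mean of at least 1 FPKM (grey) and for 46 genes of the S list, the cyclins and the G2/M list (coloured). Cdc20, Ube2c and Plk1, with CV² from 0.83 to 0.99, lie above all S genes but Cdc6, while Birc5 and Mcm7 have the lowest CV² of their lists.

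The further genes of the cycle gave a similar account between the branches. Of 25 other replication genes, all with a mean of at least 1 FPKM, 0 were 2-fold higher and 1 was 2-fold lower in pPrE, against 6.2% and 9.03% of all genes, with a median of -0.19 and 17 below 0. The gene was Wdr76, a WD repeat protein, with 6.42 ± 4.64 FPKM in pEPI and 2.22 ± 2.93 FPKM in pPrE (-1.53, -1.62 to -1.45). Pola2, the partner of Pola1, was at -0.70 and Dtl, the adaptor that degrades Cdt1, at -0.67, while Clspn, Gins1 and Tk1 had 0.44, 0.38 and 0.23. Of 28 other G2/M genes 0 reached 2-fold in either direction, against the same shares of all genes, and the median was 0.04. Spc25, a kinetochore subunit, Anln, which organises the cleavage furrow, and Smc4, a condensin subunit, had ratios of 0.63, 0.46 and 0.36. Pttg1, the securin that holds back separase, had 220 ± 89.2 FPKM in pEPI and 128 ± 65.5 FPKM in pPrE (-0.78), and Ckap2 and Aspm, both spindle proteins, had -0.78 and -0.77.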

How the data were processed

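Smart-seq2 libraries of 48 single ICM cells were examined. The authors aligned reads to mm10 and counted them on Ensembl genes with htseq-count; the submitters' processing notes name STAR and HTSeq. According to the methods, the study left low-depth libraries and libraries of uneven gene body coverage out of its analyses, and screened for outliers by PCA. The 48 wells here fill the whole grid of letters and numbers, so no removal can be seen in them. The values are raw counts, deposited without normalization. The strand setting was not given in the sources used here.

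FPKM was computed from the counts, the union of exons in GENCODE M21 and library sizes by the median of ratios, for 21858 genes; 85 counted genes without a length held 0.0146% of the counts. Log2 values used a pseudocount of 1. Branch ratios were taken for genes with a mean FPKM of at least 1, and called at 2-fold. Shares have exact Clopper-Pearson 95% intervals and ratios have counting intervals, which cover counting error only, as amplified reads cannot be traced to single molecules. Groups came from the developmental stage in the labels, with branches read by eye from the dendrogram of the study; the scde test of the study was not repeated, as the embryo of a cell is not labelled and cells are not replicates. Wells were not screened for doublets. No 2 libraries were identical.

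The 48 genes, the other lists, their motifs and the rules were chosen with earlier results of these data known. The genes named are all 48, with full values for the 5 at each end of ratio, level and variability, and for other lists the 3 largest ratios in each direction; cyclins, regulators and genes by range outside this rule were chosen after their values were seen. The alternatives were library size by total count, thinning, mean log2 levels, grouping by markers, the Y-linked split, leaving out each well letter, the fold, the minimum level, the pseudocount, ranks, a shorter G2/M list and Pearson correlation. Ratios within ranges and log10 of CV² were additions made once the values were known. Ratios and ranges were checked on simulated counts, in which, for the ranges, all genes of a list were raised together in set cells. In the data the genes of a list did not all move together, so that check does not cover cells near a cut. Versions were Python 3.11.15 with numpy 2.4.6, scipy 1.17.1, pandas 2.3.3 and, for figures, matplotlib 3.10.9.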

Additional observations from a re-analysis of the deposited data

How the results depend on the processing

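Of the 46 genes with a ratio, 24 kept their sign in 12 settings, 13 of them higher and 11 lower in pPrE, and all 46 moved past their counting interval in at least 1 setting. The count of genes at least 2-fold higher in pPrE, 1, became 2 with mean log2 levels (Aurkb and Plk1), 2 in cells without Y-linked counts (Cdc25c and Hmmr), 2 without a minimum level (Aurkb and Ccnd2, which had counts in 1 cell), 3 at a fold of 1.5 and 0 with grouping by marker score, in which 4 cells changed side. It was 1 as well in cells with Y-linked counts and without letter F, but there the gene was Kif23 and Hmmr. The count lower, 0, became 1 in cells without Y-linked counts (Nusap1), 1 without a minimum level (Ccnd1) and 3 at a fold of 1.5. The G2/M median of 0.11 became 0.17 with mean log2 levels, 0.071 by marker score, 0.31 with Y-linked counts and -0.14 without them. The S median of -0.16 became -0.21 by marker score and -0.10 without Y-linked counts. The median of the 3 measured G1 cyclins, -0.18, became -0.26 thinned, -0.64 with mean log2 levels, 0.032 by marker score and -0.31 with Y-linked counts, and a median of 3 genes follows 1 gene. The G2/M-high share of pEPI, 32%, became 62.5% without Y-linked counts, from 8 cells.

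Leaving out 1 well letter gave 0 (letter C) to 1 genes higher, medians from -0.25 (letter E) to -0.071 (letter D) for the S list, from 0.027 (letter B) to 0.22 (letter D) for the G2/M list, and from -0.80 (letter F) to 0.15 (letter D) for the cyclins. All wells of letters A, B and E had Y-linked counts, and no well of letter D did. These settings therefore overlap with the Y-linked split, and the cause of the shifts was not tested. The correlations within and between lists kept their signs in the settings run; that within the S list, 0.23, was 0.14 without letter D. The count of highly variable genes, 3, became 1 with log10 in place of the natural log, a setting added after the data had been examined, and was 2 to 3 in the other settings. No paired analysis was possible because the labels put all cells in 1 group, with no replicate numbers that 2 groups share.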

Other observations

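Several brakes of the cycle were rarely counted. Rb1, the retinoblastoma protein, was counted in 1 of 48 cells, its relative Rbl2 in 7, and Rbl1 in 30 with a mean of 2.45 FPKM. Of the Cdk inhibitors, Cdkn1a was counted in 5 cells, Cdkn1c in 4 and Cdkn2b in 8, whereas Cdkn1b, the p27 inhibitor, was counted in 44 cells at a mean of 2.59 FPKM. Cdk4 had a mean of 152 FPKM and Cdk2 of 38.8 FPKM, both in all 48 cells, but Cdk6 was counted in 3 cells. Cdc25a was counted in all 48 cells and Cdc25b in 3. Of the DREAM and MuvB genes, Mybl2 was counted in every cell with a mean of 55.6 FPKM, and Foxm1, which acts with MuvB in G2, in 33 cells. Foxm1 correlated with the G2/M genes at 0.50 over the 48 cells and Mybl2 at -0.12. The activator E2f1 had a mean of 5.74 FPKM and correlated with the S genes at 0.29.

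Of 31 matched regulators 21 reached a mean of 1 FPKM, and at 2-fold 2 were higher and 3 lower in pPrE, where 6.2% and 9.03% of all genes were. E2f6, a repressor of the E2F family, had 1.98 ± 2.5 FPKM in pEPI and 5.63 ± 5.49 FPKM in pPrE, a log2 ratio of 1.51 (counting interval 1.40 to 1.61). The 2 MYC genes were opposite: Mycn had 11.7 ± 18.3 and 24.6 ± 34.2 FPKM (1.07), and Myc had 45.7 ± 55.9 and 17.8 ± 21.2 FPKM (-1.37). Trp53 had 62.9 ± 21.5 FPKM in pEPI and 30.1 ± 14.2 FPKM in pPrE (-1.06, -1.10 to -1.03), and was counted in all 48 cells. Cdkn2b, at -1.33, rests on 8 cells, and Lin54, at 0.59, was the next above 0. These lists and genes were chosen with earlier results of the data known, and no test was made.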
